A study of Mus musculus with 18 samples.

Results

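The proteasome genes of the mouse liver were followed over 24 h in whole-liver RNA. They were taken from the table of normalised values as every gene whose symbol starts with Psm, a letter from a to g and a number, which gave 48 of 14451 genes. All 48 were above the lowest value of a library in at least 1 liver and were tested, together with 14449 genes in all, and 46 of them had a mean value of at least 1. The livers came from 18 wild-type (WT) male mice aged 8 to 9 weeks and kept under 12 h of light and 12 h of dark, with 3 mice at each of 6 zeitgeber times (ZT), 4 h apart from ZT1 to ZT21, where ZT0 is lights on. No treatment and no other genotype was included. Polyadenylated RNA was sequenced, and the values are estimated read counts plus 0.5, scaled by the authors to 1000000 reads of an effective library size and called normalised values here. Libraries held between 10268168 and 23242842 estimated reads (median 12078875), and 41 of the 48 genes had at least 100 estimated reads in every liver. Albumin (Alb) had a mean normalised value of 64809, and none of the 6 hepatocyte markers listed was at the floor in any liver. Over 17 clock genes, 17 of 18 livers lay closest to the other livers of the labelled time, and ZT5 replicate 3 lay closest to those of ZT9.

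The 26S proteasome degrades proteins that carry chains of ubiquitin. Its 20S core is a barrel of alpha and beta rings with the proteolytic sites inside the beta rings, and its 19S cap binds ubiquitin chains, removes them and threads the substrate into the core with a ring of ATPases. In immune cells, and in other cells exposed to interferon, the catalytic beta subunits can be replaced by the immunoproteasome subunits, other caps such as PA28 can open the core, and dedicated chaperones build the rings and the base of the cap. Hepatocytes make and degrade protein at a high rate over the feeding and fasting cycle, and the proteasome also sets how long clock proteins last.

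Most proteasome transcripts varied little over the day, and those that passed a test differed in the time of their peak. In the limma test over the 6 time points, 13 of 48 genes (27.1%) passed an adjusted *P*-value of 0.05, where 29.2% of all genes tested did. A cosine of 24 h passed for 17 of 48 (35.4%, against 36.8% of all genes tested), so both shares were near those of the table as a whole. Of all 48 genes, 12 were called with a peak between ZT18 and ZT6 (25%, against 18.5% of all genes tested) and 5 with a peak between ZT6 and ZT18 (10.4%, against 18.3%), a difference that was not tested. The size of the movement was smaller: the median amplitude of the 24 h cosine was 0.09 on the log2 scale over the 48 genes and 0.16 over all genes tested, and the median fold between the highest and the lowest of the 6 means was 1.20 against 1.48. Replicates were also closer, with a median coefficient of variation within a time point of 0.0579 for the proteasome genes, 0.138 for all genes tested and 0.120 for genes with a mean value of at least 1. The proteasome genes were also more abundant, with a median of the mean values of 59.4 against 11.1 and 14.8, and the part of this in the smaller amplitude and spread was not tested. The 3 values of the highest and the lowest time point did not overlap in 32 of 48 genes, a share near the 70.8% of all genes tested. The time point with the highest mean was ZT1 in 20 of 48 genes (41.7%, against 14.4% of all genes tested), ZT13 in 11 (18.8% of all genes tested), ZT17 in 11 (16.9%), ZT5 in 4 (21.0%), ZT9 in 2 (15.97%) and ZT21 in 0 (12.9%). The groups are counted below with no test of one group against another.

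**Figure D1:**
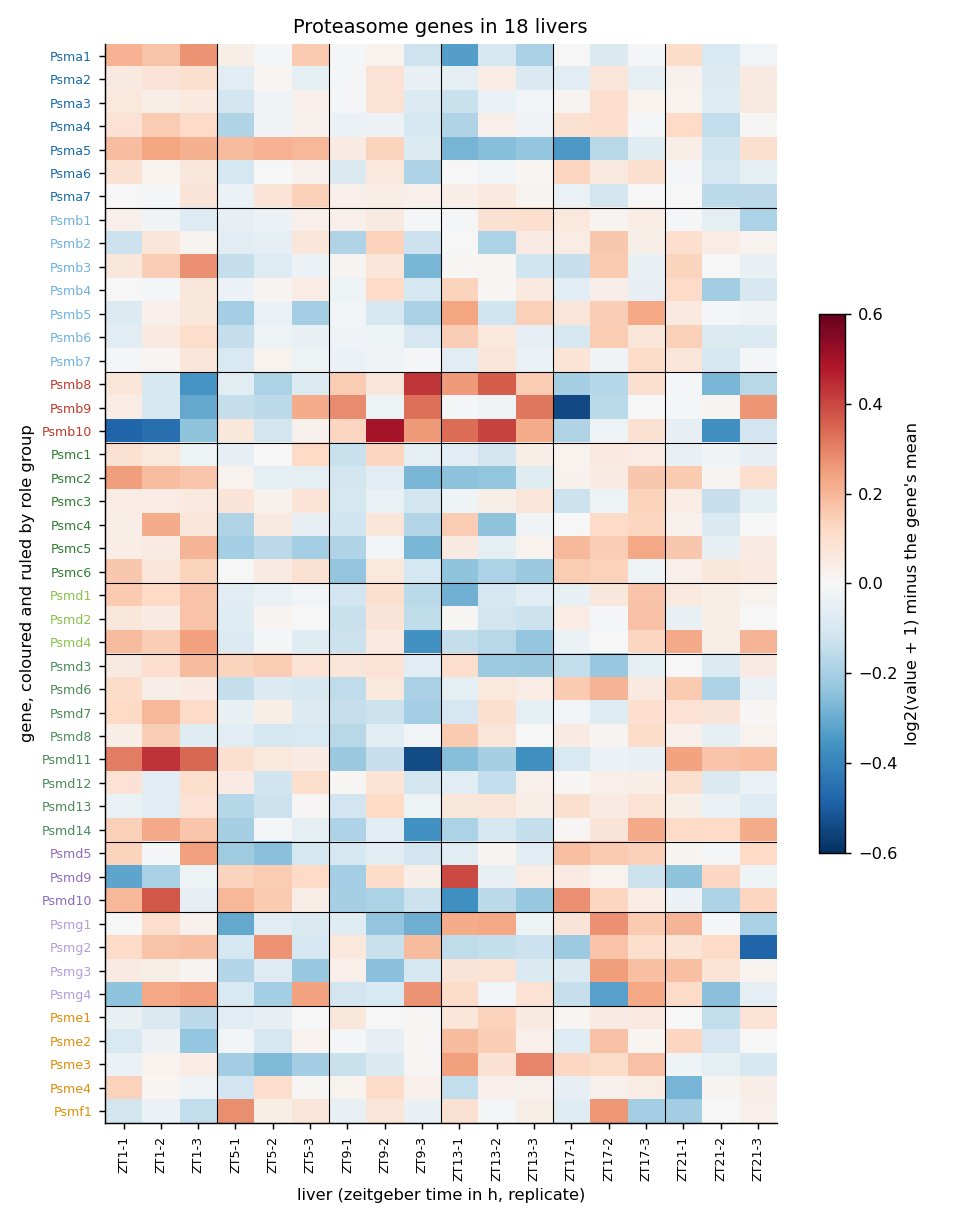
Each row is 1 of the 46 proteasome genes with a mean value of at least 1 and each column 1 of the 18 livers (zeitgeber time and replicate), and the colour is log2(normalised value + 1) minus the mean of the gene over the livers. Psmd11 and Psma5 are red at ZT1 and blue at ZT13, Psmb8 and Psmb10 are red at ZT9 and ZT13, and most rows are pale.

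The genes with a 24 h cosine are described by peak time in 3 windows, whose edges were drawn after the peaks were seen, so that nothing is read from the shares of all genes given beside them. Between ZT21 and ZT4 the cosine peaked for 10 genes (9.53% of all genes tested were called with a peak there), namely Psma1 and Psma5 of the alpha ring, the ATPases Psmc2 and Psmc6, Psmd1 and Psmd4 of the base, and Psmd3, Psmd7, Psmd11 and Psmd14 of the lid. Between ZT17 and ZT20 it peaked for 3 genes (5.22%), the catalytic subunit Psmb5, the ATPase Psmc5 and the assembly chaperone Psmd5. Between ZT10 and ZT16 it peaked for 4 genes (7.82%), which were the immunoproteasome subunits Psmb8 and Psmb10 and the PA28 subunits Psme1 and Psme3. Psme3 (ZT15.7 ± 0.9 h (SE)) and Psmb5 (ZT17.3 ± 1.1 h (SE)) stand in different windows although their peaks lie within their errors. Called amplitudes ran from 0.08 (Psme1) to 0.34 (Psmb10) on the log2 scale.

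**Figure D2:**
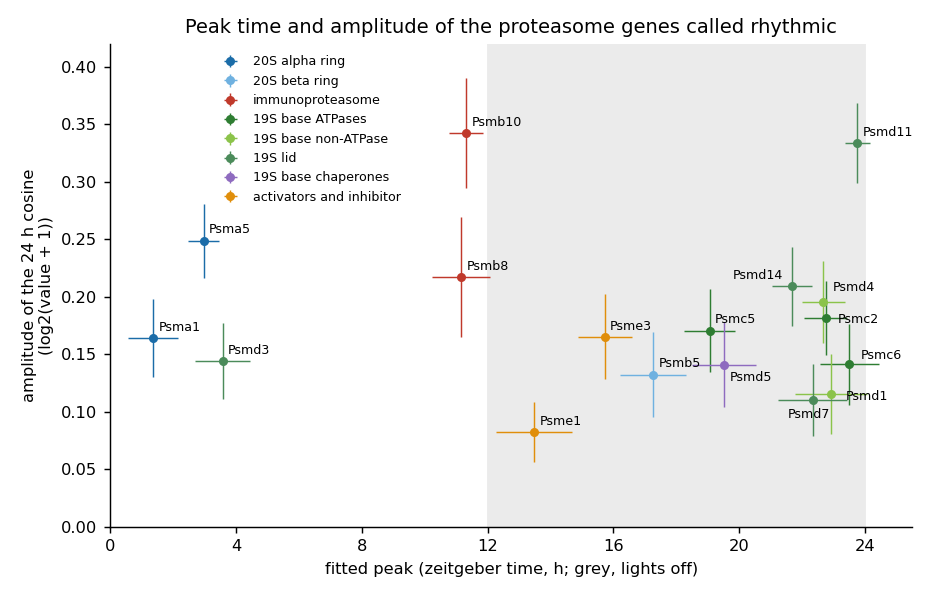
Peak time (x axis, zeitgeber time in h) and amplitude (y axis, log2 scale) of the 24 h cosine for the 17 proteasome genes with an adjusted P-value under 0.05, coloured by role group, with bars of 1 standard error and the dark hours in grey. Psmd11 and Psmb10 have the largest amplitudes, 0.33 and 0.34, and stand at ZT23.8 and ZT11.3.

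The start regions of these genes were read for 6 short motifs, because groups of genes peaked at different times. RefSeq windows of 250 bases before to 50 bases after the start (GRCm38.p6) were matched by symbol to 40 of the 48 genes, and both strands were searched. The E-box CACGTG, which clock factors can bind, was found in 4 of the 40 genes (11.5% of 10326 tested genes with a window held it). They were Psmb10 and Psme3, which were called rhythmic, and Psma4 and Psmd9, which were not. The stretches that hold it are shown, upstream of the start and with the E-box in capitals, at chr8:105938453-105938542 on the minus strand for Psmb10, chr11:101316093-101316212 on the plus strand for Psme3, chr9:54950679-54950768 on the plus strand for Psma4 and chr5:123228070-123228189 on the plus strand for Psmd9.
Psmb10: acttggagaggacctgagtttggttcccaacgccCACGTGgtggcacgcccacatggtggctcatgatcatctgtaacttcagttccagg
Psme3: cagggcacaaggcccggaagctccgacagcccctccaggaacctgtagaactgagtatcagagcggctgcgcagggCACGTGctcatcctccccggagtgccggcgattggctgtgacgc
Psma4: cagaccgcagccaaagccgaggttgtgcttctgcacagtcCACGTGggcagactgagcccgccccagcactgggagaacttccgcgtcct
Psmd9: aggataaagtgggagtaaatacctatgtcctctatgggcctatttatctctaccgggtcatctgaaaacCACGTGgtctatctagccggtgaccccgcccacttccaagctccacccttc

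The CCAAT box, searched as CCAAT and ATTGG, was in 13 of the 40 genes (32.5%, against 42.9% of tested genes). Psmd4 of the 19S base is shown as one that holds it and peaked late in the night, at chr3:95042615-95042734 on the minus strand with the match in capitals.
Psmd4: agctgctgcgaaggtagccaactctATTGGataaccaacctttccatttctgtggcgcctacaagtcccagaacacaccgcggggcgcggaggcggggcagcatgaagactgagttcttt
The core of the antioxidant response element, TGACNNNGC, through which the factor NRF1 raises proteasome genes, was in 6 genes (16.8% of tested genes), which were Psmb5, Psmb6, Psmc6, Psmd9, Psmd12 and Psme4. The core of the interferon-stimulated response element, searched as 2 runs of GAAA with any 2 bases between them, was in 5 genes (12.5%, against 3.88% of tested genes), Psmb3, Psmd4, Psmd9, Psme1 and Psmg4. The windows of Psmb9 and Psmb10 did not hold it. No match to any of the 6 motifs was found for Psmb8, which may be among the genes without a window. The D-box TTATGNAA (2.73% of tested genes) and the heat shock element, searched as TTC, GAA and TTC with any 2 bases between neighbours (0.571%), were in none of the 40. A match is a run of letters and not a measured binding site, and letters of 1 motif can lie inside another.

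Of the 17 subunits of the 19S cap, 9 had a 24 h cosine and 6 passed the time point test, and 11 had their highest mean at ZT1, an hour after lights on, where 36.8%, 29.2% and 14.4% of all genes tested did. The lid subunit Psmd11 (chr11:80428615-80473248, plus strand), which holds the lid to the base and the core, had the lowest adjusted *P*-value of the 48 genes. Its normalised values were 111, 121 and 114 at ZT1, 96.02, 93.9 and 93.01 at ZT5, 76.9, 81.4 and 61.6 at ZT9, 75.1, 78.1 and 69.3 at ZT13, 84.3, 87.5 and 87.01 at ZT17, and 106, 101 and 102 at ZT21. All ZT1 livers were above all ZT21 livers, these above all ZT5 livers and these above all ZT17 livers, and the lowest 6 values were those of ZT9 and ZT13, which overlapped each other. The means were 116 ± 5.13 (SD, n = 3) at ZT1 against 73.3 ± 10.4 at ZT9, a 1.58-fold range (log2 difference 0.66 ± 0.08 (SE), adjusted *P* = 3.45e-05), and the cosine had an amplitude of 0.33 ± 0.03 (SE) with a peak at ZT23.8 ± 0.4 h (SE) (adjusted *P* = 1.7e-06). Psmd14 (chr2:61711694-61800376, plus strand) encodes the enzyme that cuts the ubiquitin chain from the substrate. It had values of 45.02, 47.8 and 45.7 at ZT1, 35.3, 40.5 and 39.1 at ZT5, 35.7, 38.8 and 31.4 at ZT9, 35.6, 37.8 and 36.8 at ZT13, 40.9, 43.05 and 47.9 at ZT17, and 44.4, 44.4 and 47.7 at ZT21. Every ZT1, ZT17 and ZT21 liver was above every ZT5, ZT9 and ZT13 liver. Means of 46.2 ± 1.44 (SD, n = 3) at ZT1 against 35.3 ± 3.70 at ZT9 gave a log2 difference 0.38 ± 0.09 (SE) and an adjusted *P* of 0.00443, with a cosine peak at ZT21.7 ± 0.6 h (SE) (adjusted *P* = 0.000329). The other lid subunits called by the cosine were Psmd7, the inactive partner of Psmd14, at 62.5 ± 2.13 (SD, n = 3) at ZT1 against 50.6 ± 1.43 at ZT9 (adjusted *P* = 0.0271), and Psmd3 at 85.1 ± 1.89 (SD, n = 3) at ZT5 against 70.5 ± 4.16 at ZT17 (adjusted *P* = 0.00593). Neither passed the time point test (adjusted *P* = 0.0516 and 0.0668), but Psmd7 did under 3 other settings and without ZT13 replicate 1, ZT13 replicate 2 or ZT17 replicate 3 (adjusted *P* from 0.0311 to 0.0488), and Psmd3 did with every liver scaled to 1000000 (0.0189), quantile normalisation (0.0448) or array weights (0.0296) and without ZT13 replicate 1 (0.00692). The call of Psmd7 was lost without ZT1 replicate 2, ZT9 replicate 1, ZT9 replicate 2 or ZT9 replicate 3 (adjusted *P* = 0.0555, 0.0535, 0.0512 and 0.0681). The remaining lid subunits, Psmd6, Psmd8, Psmd12 and Psmd13, passed neither test. The narrowest range of these was that of Psmd12 (66.97 ± 4.34 (SD, n = 3) at ZT1 against 62.2 ± 3.93 at ZT13) and the widest that of Psmd6 (65.8 ± 3.40 (SD, n = 3) at ZT17 against 55.1 ± 1.27 at ZT5), whose cosine test was passed without ZT21 replicate 2 (adjusted *P* = 0.0216).

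In the base of the cap, 3 of the 6 ATPases passed both tests, the time point test that 29.2% of all genes passed and the cosine test that 36.8% passed. Psmc2 (chr5:21785283-21803787, plus strand) had values of 99.8, 95.3 and 94.02 at ZT1, 85.1, 80.4 and 80.8 at ZT5, 77.5, 79.97 and 69.01 at ZT9, 70.4, 70.9 and 79.7 at ZT13, 85.2, 86.7 and 93.8 at ZT17, and 93.5, 84.8 and 89.9 at ZT21. The ZT1 livers were the highest 3, by a narrow margin over ZT17 replicate 3, and the ZT9 and ZT13 livers were the lowest 6. The change from 96.4 ± 3.03 (SD, n = 3) at ZT1 to 73.6 ± 5.23 at ZT13 was a log2 difference 0.39 ± 0.07 (SE) with an adjusted *P* of 0.00285. Psmc5 (chr11:106256154-106263120, plus strand) was highest earlier in the night. Its values were 54.6, 54.98 and 61.3 at ZT1, 46.001, 47.5 and 46.02 at ZT5, 46.7, 52.4 and 43.7 at ZT9, 55.2, 50.9 and 53.9 at ZT13, 60.8, 58.9 and 62.6 at ZT17, and 59.5, 51.3 and 54.9 at ZT21. The ZT17 livers were above every ZT5, ZT9 and ZT13 liver and overlapped those of ZT1 and ZT21, with 60.8 ± 1.86 (SD, n = 3) at ZT17 against 46.5 ± 0.832 at ZT5 (log2 difference 0.38 ± 0.08 (SE), adjusted *P* = 0.00608), and the cosine peaked at ZT19.1 ± 0.8 h (SE). With each liver scaled to a sum of 1000000 the time point call of Psmc5 was lost (adjusted *P* = 0.0738). Psmc6 had 70.3 ± 2.14 (SD, n = 3) at ZT1 against 55.3 ± 0.999 at ZT13 (adjusted *P* = 0.0127), and Psmc1, Psmc3 and Psmc4 passed neither test, with ratios from 1.06 to 1.14. Psmd4 (chr3:95032694-95042614, minus strand), a receptor for ubiquitin chains, had values of 82.2, 79.7 and 85.5 at ZT1, 67.9, 71.3 and 68.3 at ZT5, 65.7, 74.97 and 55.7 at ZT9, 65.04, 64.02 and 61.01 at ZT13, 70.1, 71.9 and 78.7 at ZT17, and 84.4, 73.8 and 83.01 at ZT21. The ZT1 livers were above all livers of ZT5, ZT9, ZT13 and ZT17 and overlapped those of ZT21, and ZT9 replicate 3 had the lowest value. Its means were 82.5 ± 2.91 (SD, n = 3) at ZT1 against 63.4 ± 2.09 at ZT13 (log2 difference 0.38 ± 0.09 (SE), adjusted *P* = 0.0111), and its cosine peaked at ZT22.7 ± 0.7 h (SE) (adjusted *P* = 0.000857). Psmd1 (chr1:86064387-86139151, plus strand), a scaffold of the base whose exons overlap those of Gm21972 on the same strand, had values of 104, 101 and 105 at ZT1, 88.8, 90.9 and 92.2 at ZT5, 85.98, 99.9 and 83.2 at ZT9, 76.3, 87.01 and 89.1 at ZT13, 90.4, 97.9 and 105 at ZT17, and 97.3, 95.6 and 94.8 at ZT21. The ZT1 livers stood above every liver of ZT5, ZT9, ZT13 and ZT21 and overlapped those of ZT17, with 104 ± 1.91 (SD, n = 3) at ZT1 against 84.1 ± 6.83 at ZT13. It passed the cosine test (adjusted *P* = 0.0346) and not the time point test (adjusted *P* = 0.0603), and the cosine call was lost without any 1 of 7 livers, namely the 3 of ZT1, ZT9 replicates 1 and 3 and ZT13 replicates 1 and 2 (adjusted *P* from 0.0543 to 0.0724). The time point test of Psmd1 was passed without ZT9 replicate 2 (adjusted *P* = 0.0226) or ZT17 replicate 1 (0.0466) and with quantile normalisation (0.0371). Psmd2, the other large scaffold of the base, passed neither test (173 ± 8.13 (SD, n = 3) at ZT1 against 153 ± 7.77 at ZT13).

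Of the 14 constitutive 20S genes, Psma8 left aside, 2 passed the time point test (29.2% of all genes tested did) and both were alpha subunits. Psma5 (chr3:108256926-108279974, plus strand), a subunit of the alpha ring that gates the entrance of the core, had values of 52.8, 54.8 and 53.96 at ZT1, 53.1, 53.7 and 53.4 at ZT5, 48.1, 51.02 and 43.8 at ZT9, 37.99, 38.7 and 39.3 at ZT13, 36.3, 41.2 and 44.01 at ZT17, and 47.7, 42.5 and 49.6 at ZT21. The 6 livers of ZT1 and ZT5 were above the other 12, and the livers of ZT17 overlapped those of ZT13, ZT9 and ZT21. The 1.39-fold range, 53.9 ± 0.979 (SD, n = 3) at ZT1 against 38.7 ± 0.655 at ZT13, was a log2 difference 0.47 ± 0.08 (SE) (adjusted *P* = 0.000609), and the cosine had an amplitude of 0.25 ± 0.03 (SE) and a peak at ZT3.0 ± 0.5 h (SE) (adjusted *P* = 2.67e-05). Psma1 (chr7:114264606-114276118, minus strand), of the same ring, had values of 83.6, 81.3 and 87.2 at ZT1, 74.1, 71.9 and 80.8 at ZT5, 71.8, 73.3 and 66.1 at ZT9, 57.2, 67.1 and 63.1 at ZT13, 72.3, 68.1 and 71.9 at ZT17, and 78.2, 67.7 and 71.3 at ZT21. All ZT1 livers were above all others, and the lowest mean was at ZT13 (84.1 ± 2.96 (SD, n = 3) at ZT1 against 62.5 ± 4.997 at ZT13, log2 difference 0.43 ± 0.08 (SE), adjusted *P* = 0.00817). The other constitutive alpha genes, Psma2, Psma3, Psma4, Psma6 and Psma7, passed neither test and had ratios from 1.08 to 1.13. With every liver scaled to 1000000 Psma7 passed both (adjusted *P* = 0.031 in the time point test and 0.00301 in the cosine test), and with array weights the cosine test (0.0445). Whether these 5 genes differ from Psma1 and Psma5 was not tested.

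In the constitutive beta ring no gene passed the time point test and 1 of 7 passed the cosine test (29.2% and 36.8% of all genes tested did). It was Psmb5 (chr14:54614119-54618022, minus strand), which carries the chymotrypsin-like site of the core. Its values were 55.5, 60.1 and 61.7 at ZT1, 50.9, 57.1 and 50.9 at ZT5, 58.1, 54.7 and 51.3 at ZT9, 69.5, 53.97 and 64.9 at ZT13, 61.9, 65.1 and 69.1 at ZT17, and 61.2, 58.5 and 57.8 at ZT21. The ZT17 livers were above every ZT1, ZT5, ZT9 and ZT21 liver, and ZT13 replicate 2 lay apart from the other ZT13 livers. Means of 65.4 ± 3.61 (SD, n = 3) at ZT17 against 52.9 ± 3.59 at ZT5 and a cosine amplitude of 0.13 ± 0.04 (SE) peaking at ZT17.3 ± 1.1 h (SE) gave an adjusted *P* of 0.022, which was not passed with every liver scaled to 1000000 (0.197) or without ZT5 replicate 1 (0.0522), ZT5 replicate 3 (0.0547) or ZT17 replicate 3 (0.0589). Its time point test was passed only without ZT13 replicate 2 (adjusted *P* = 0.0179). Psmb6 (chr11:70525367-70527858, plus strand), which carries the caspase-like site, had values of 72.8, 79.6 and 82.2 at ZT1, 69.1, 74.7 and 73.9 at ZT5, 75.3, 74.8 and 71.2 at ZT9, 84.7, 79.8 and 73.8 at ZT13, 71.4, 85.1 and 80.4 at ZT17, and 84.4, 72.1 and 72.1 at ZT21. Psmb7 (chr2:38588036-38644087, minus strand), which carries the trypsin-like site and has exons overlapping Nek6 on the opposite strand, had values of 103, 105 and 109 at ZT1, 97.6, 106 and 102 at ZT5, 101, 102 and 104 at ZT9, 99.4, 109 and 101 at ZT13, 110.1, 102 and 113 at ZT17, and 109.5, 96.8 and 103 at ZT21. In both the livers of the highest and the lowest time point overlapped, and neither test was passed (adjusted *P* of the time point test 0.661 and 0.805). Psmb3 (chr11:97703399-97713500, plus strand), a beta subunit without a proteolytic site, had values of 58.4, 61.9 and 67.5 at ZT1, 50.4, 52.8 and 54.3 at ZT5, 56.4, 58.7 and 45.98 at ZT9, 55.9, 55.9 and 51.3 at ZT13, 50.5, 62.2 and 53.9 at ZT17, and 61.3, 55.6 and 53.97 at ZT21. Its ZT1 livers were above its ZT5 livers (62.6 ± 4.62 (SD, n = 3) at ZT1 against 52.5 ± 1.98 at ZT5), and the time point test gave an adjusted *P* of 0.305. Psmb1, Psmb2 and Psmb4 also passed neither test, with ratios from 1.09 to 1.11.

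**Figure D3:**
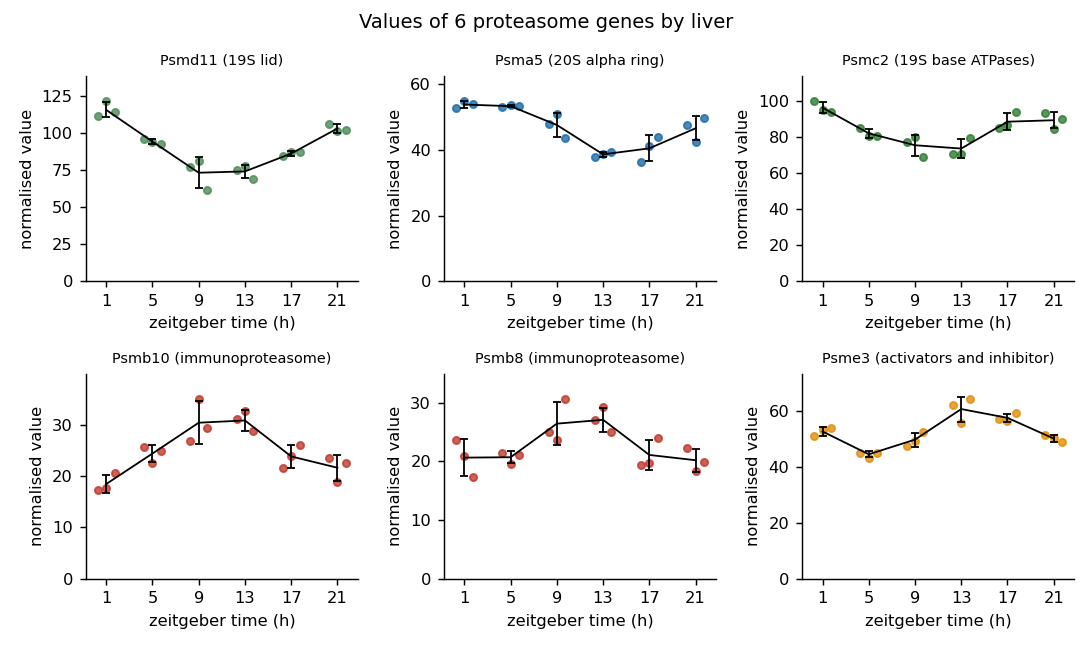
Normalised values (y axis, from 0) of 6 proteasome genes in each of the 18 livers (points) by zeitgeber time (x axis, h), with the mean of the 3 livers as a line and the standard deviation as bars. Psmd11, Psma5 and Psmc2 are lowest at ZT9 or ZT13, where Psmb10 and Psmb8 are highest, and Psme3 rises from 44.5 at ZT5 to 60.6 at ZT13.

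Of the 3 immunoproteasome subunits, Psmb10 and Psmb8 passed both tests and were highest around the change from light to dark, and Psmb9 passed neither (29.2% of all genes tested passed the time point test and 36.8% the cosine test). Psmb10 (chr8:105935735-105938444, minus strand), which replaces Psmb7, had values of 17.3, 17.6 and 20.5 at ZT1, 25.7, 22.6 and 24.96 at ZT5, 26.9, 34.99 and 29.4 at ZT9, 31.1, 32.7 and 28.7 at ZT13, 21.5, 23.9 and 26.1 at ZT17, and 23.6, 18.8 and 22.5 at ZT21. The 6 livers of ZT9 and ZT13 were above the other 12, and the ZT1 livers held 3 of the lowest 4 values. Means were 30.8 ± 2.03 (SD, n = 3) at ZT13 against 18.5 ± 1.79 at ZT1, a 1.67-fold range (log2 difference 0.71 ± 0.11 (SE), adjusted *P* = 0.000576), and the cosine had an amplitude of 0.34 ± 0.05 (SE) with a peak at ZT11.3 ± 0.5 h (SE) (adjusted *P* = 6.04e-05). Psmb8 (chr17:34197721-34201454, plus strand), which replaces Psmb5, had values of 23.6, 20.9 and 17.3 at ZT1, 21.4, 19.6 and 21.1 at ZT5, 25.04, 23.6 and 30.6 at ZT9, 27.003, 29.2 and 25.1 at ZT13, 19.4, 19.8 and 24.1 at ZT17, and 22.3, 18.4 and 19.9 at ZT21. The ZT13 livers were above all livers of ZT1, ZT5, ZT17 and ZT21, and the ZT9 livers overlapped those of ZT17. Psmb8 passed the time point test (27.1 ± 2.07 (SD, n = 3) at ZT13 against 20.2 ± 1.98 at ZT21, log2 difference 0.41 ± 0.12 (SE), adjusted *P* = 0.0296) and the cosine test, with a peak at ZT11.2 ± 0.9 h (SE) (adjusted *P* = 0.00902). The time point call was lost without ZT9 replicate 3 (adjusted *P* = 0.0573), ZT13 replicate 1 (0.0604), ZT13 replicate 2 (0.0761) or ZT21 replicate 3 (0.0502), and the cosine call was kept without any 1 liver. Psmb9 (chr17:34181987-34187764, minus strand), which replaces Psmb6 and overlaps Tap1 on the opposite strand, had values of 10.8, 9.67 and 8.22 at ZT1, 9.33, 9.22 and 12.3 at ZT5, 12.9, 10.2 and 13.4 at ZT9, 10.4, 10.2 and 13.2 at ZT13, 6.83, 9.20 and 10.4 at ZT17, and 10.3, 10.5 and 12.7 at ZT21. All 6 time points overlapped, and the means of 12.1 ± 1.73 (SD, n = 3) at ZT9 against 8.81 ± 1.82 at ZT17 did not pass (adjusted *P* = 0.262 in the time point test and 0.478 in the cosine test). The kit is not described as marking strand, so reads of overlapping genes on opposite strands cannot be told apart.

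Per kb of transcript, the immunoproteasome subunits were below the subunits they replace. The mean normalised value per kb was 13.9 for Psmb8 and 65.6 for Psmb5, 7.79 for Psmb9 and 95.9 for Psmb6, and 19.02 for Psmb10 and 89.8 for Psmb7. The log2 ratio of the normalised values plus 1 was taken in each liver to ask whether the mixture differed between dark and light. For Psmb10 over Psmb7 it was -2.51, -2.51 and -2.36 at ZT1, -1.89, -2.17 and -1.99 at ZT5, -1.88, -1.52 and -1.78 at ZT9, -1.65, -1.71 and -1.78 at ZT13, -2.30, -2.05 and -2.07 at ZT17, and -2.17, -2.31 and -2.15 at ZT21. The ZT1 livers had the 3 lowest ratios, and all ZT9 and ZT13 livers were above all other livers, at means of -1.73 ± 0.18 and -1.71 ± 0.07 against -2.46 ± 0.09 at ZT1 (SD, n = 3). For Psmb8 over Psmb5 it was -1.20, -1.48 and -1.77 at ZT1, -1.21, -1.50 and -1.23 at ZT5, -1.18, -1.18 and -0.73 at ZT9, -1.33, -0.86 and -1.34 at ZT13, -1.62, -1.67 and -1.48 at ZT17, and -1.42, -1.62 and -1.49 at ZT21. ZT9 replicate 3 and ZT13 replicate 2 had the highest ratios of Psmb8, and all other livers lay between -1.77 and -1.18. For Psmb9 over Psmb6 the means ran from -3.04 ± 0.19 at ZT17 to -2.52 ± 0.22 at ZT9, and the livers of these time points did not overlap, while those of all other pairs of time points did. Between the 9 dark and the 9 light livers the mean difference was -0.15 for Psmb8 over Psmb5 (adjusted *P* = 0.696, exact two-sided permutation test), -0.09 for Psmb9 over Psmb6 (0.696) and 0.05 for Psmb10 over Psmb7 (0.737), adjusted over the 3 ratios. Dark and light ratios overlapped in all 3 pairs. The test shuffles single livers and does not take into account that livers share time points. For Psmb8 over Psmb5 and Psmb10 over Psmb7 the highest time points were ZT9, which is in the light, and ZT13, which is in the dark. A contrast of dark and light can miss a change over the day of that shape. Without ZT1 replicate 1 or ZT1 replicate 2 the small difference of Psmb10 over Psmb7 changed sign, to -0.00789 at the lowest. Leaving out 1 liver at a time, the difference lay between -0.222 and -0.0836 for Psmb8 over Psmb5. For Psmb9 over Psmb6 it lay between -0.151 and -0.0435.

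**Figure D4:**
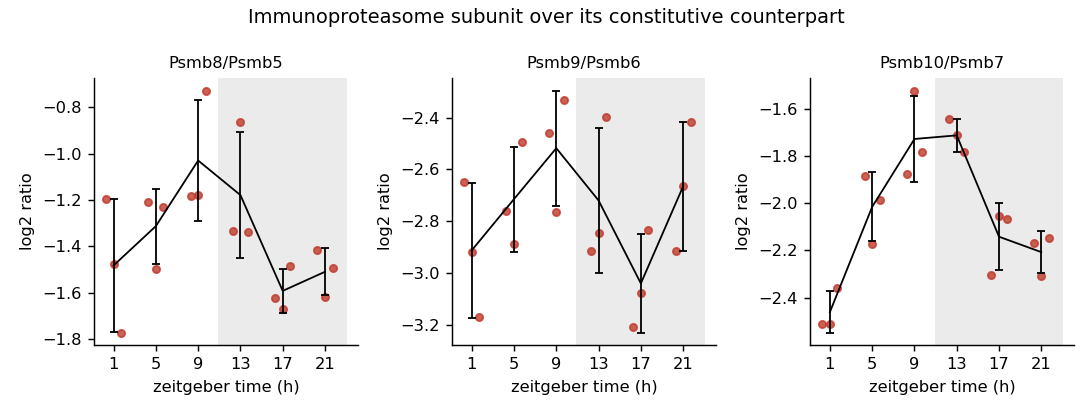
Log2 ratio of each immunoproteasome subunit to the constitutive subunit it replaces (y axis) in the 18 livers (points) by zeitgeber time (x axis, h), with means as lines, standard deviations as bars and dark hours in grey. Psmb10 over Psmb7 goes from -2.46 at ZT1 to -1.71 at ZT13, and the livers of Psmb9 over Psmb6 overlap between all pairs of time points except ZT9 and ZT17.

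Immune cells carry the immunoproteasome, so their markers are given beside it. In whole-liver RNA, fewer cells of a type and less RNA per cell cannot be told apart. The 8 Kupffer cell and macrophage markers, led by Clec4f at a mean of 71.7, summed to 191 ± 68.8 at ZT1, 253 ± 41.96 at ZT5, 255 ± 28.4 at ZT9, 232 ± 39.8 at ZT13, 186 ± 72.4 at ZT17 and 150.0 ± 32.1 at ZT21 (SD, n = 3). Of these 8, 2 passed the time point test and 4 the cosine test, all 4 with a peak between ZT6 and ZT18. Of all genes tested, 29.2% passed the time point test, 36.8% the cosine test and 18.3% the cosine test with a peak there. The macrophage gene Cd5l had 77.99 ± 10.01 (SD, n = 3) at ZT9 against 35.4 ± 10.1 at ZT21 (adjusted *P* = 0.0182). Marco and Timd4 followed, with adjusted *P*-values of 0.0315 and 0.0862 in the time point test. The 9 lymphocyte and leukocyte markers tested of 13 listed, with Cd74 the most abundant, summed to 63.9 ± 19.9 at ZT1, 89.1 ± 15.3 at ZT5, 64.5 ± 14.4 at ZT9, 67.9 ± 13.2 at ZT13, 57.6 ± 26.7 at ZT17 and 60.3 ± 22.4 at ZT21. None of the 9 passed a test (lowest adjusted *P* of the time point test 0.0967 for Cd79a, then 0.214 for Cd79b), and Cd3e, Cd3d, Cd3g and Nkg7 were not matched to a row. No marker of either list was at the floor in any liver. The 6 markers of sinusoidal endothelium, none at the floor in any liver and Kdr the most abundant, summed to 158 ± 33.9 at ZT1, 214 ± 28.4 at ZT5, 194 ± 19.8 at ZT9, 186 ± 32.9 at ZT13, 155 ± 44.1 at ZT17 and 143 ± 30.2 at ZT21 (SD, n = 3), and 3 of them passed the cosine test, all with a peak between ZT6 and ZT18. The part of these cell types in the immunoproteasome result was not tested.

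Among the proteasome activators, Psme3 was the one called by all 5 tests used here, although the period CircaN fitted to it, 20 h, was the shortest allowed. Psme3 (chr11:101316213-101323537, plus strand) encodes the nuclear PA28 subunit, whose E-box is shown above, and had values of 50.97, 52.97 and 53.9 at ZT1, 45.03, 43.3 and 45.1 at ZT5, 47.5, 49.2 and 52.4 at ZT9, 62.1, 55.6 and 64.1 at ZT13, 56.9, 56.4 and 59.1 at ZT17, and 51.2, 50.2 and 48.8 at ZT21. The ZT5 livers were below every other liver, and the 6 livers of ZT13 and ZT17 were above the other 12. Its means were 60.6 ± 4.45 (SD, n = 3) at ZT13 against 44.5 ± 1.02 at ZT5 (log2 difference 0.44 ± 0.07 (SE), adjusted *P* = 0.000996), and the cosine had an amplitude of 0.17 ± 0.04 (SE) with a peak at ZT15.7 ± 0.9 h (SE) (adjusted *P* = 0.00521). Psme1 (chr14:55578123-55581529, plus strand), which with Psme2 forms the PA28 ring induced by interferon and overlaps Emc9 on the opposite strand, had values of 73.5, 71.3 and 67.95 at ZT1, 72.3, 73.2 and 75.7 at ZT5, 79.5, 75.8 and 76.1 at ZT9, 79.8, 83.6 and 78.8 at ZT13, 76.4, 78.5 and 78.95 at ZT17, and 75.99, 68.4 and 80.5 at ZT21. The ZT13 livers were above the ZT1 livers, by 1.14-fold in the means, 80.7 ± 2.53 (SD, n = 3) at ZT13 against 70.9 ± 2.81 at ZT1. The cosine test gave an adjusted *P* of 0.0479 and the time point test 0.259, and the cosine call was lost without any 1 liver other than ZT21 replicate 3 (adjusted *P* from 0.0509 to 0.113), with every liver scaled to 1000000 (0.0849), with quantile normalisation (0.101) and with array weights (0.0703). Psme2 had its highest and lowest means at the same time points as Psme1 (60.5 ± 3.45 (SD, n = 3) at ZT13 against 51.1 ± 3.66 at ZT1) and passed neither test (adjusted *P* = 0.0957 for the cosine). Psme4, the PA200 activator, and Psmf1, an inhibitor of the core, passed neither test, with ratios of 1.09 and 1.18.

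Of the 7 assembly chaperones, 2 passed the time point test, both of the 19S base, and 1 passed the cosine test (29.2% and 36.8% of all genes tested did). Psmd5 (chr2:34849734-34874968, minus strand) had values of 36.96, 33.3 and 39.98 at ZT1, 28.8, 28.02 and 31.2 at ZT5, 31.3, 32.03 and 30.9 at ZT9, 31.9, 33.9 and 31.9 at ZT13, 38.2, 37.6 and 37.1 at ZT17, and 33.96, 33.2 and 36.6 at ZT21. The ZT17 livers lay close together and above all livers of ZT5, ZT9, ZT13 and ZT21, with 37.6 ± 0.539 (SD, n = 3) at ZT17 against 29.3 ± 1.64 at ZT5 (log2 difference 0.35 ± 0.08 (SE), adjusted *P* = 0.0121) and a cosine peak at ZT19.5 ± 1.0 h (SE) (adjusted *P* = 0.0162). With every liver scaled to 1000000 both calls of Psmd5 were lost (adjusted *P* = 0.144 and 0.0998). Psmd10 (chrX:140948429-140956728, minus strand), also known as gankyrin, had values of 11.7, 13.3 and 9.70 at ZT1, 11.7, 11.3 and 10.4 at ZT5, 8.64, 8.71 and 9.14 at ZT9, 7.58, 8.93 and 8.47 at ZT13, 12.4, 11.1 and 10.4 at ZT17, and 9.81, 8.74 and 11.1 at ZT21. The ZT13 livers were below all ZT1 livers (11.6 ± 1.81 (SD, n = 3) at ZT1 against 8.33 ± 0.686 at ZT13, adjusted *P* = 0.0388), and the ZT9 livers overlapped those of ZT13. Its call was lost without any 1 of 12 livers, namely ZT1 replicates 1 and 2, ZT5 replicates 1 and 2, the 3 of ZT9, ZT13 replicates 1 and 3, ZT17 replicates 1 and 2 and ZT21 replicate 1 (adjusted *P* from 0.0503 to 0.0936) and with voom weights (0.0523), and its cosine test (0.0776) was passed without ZT1 replicate 3 (0.0488), ZT17 replicate 1 (0.042) or ZT21 replicate 2 (0.0291). Psmd9, the third chaperone of the base, passed neither test (30.7 ± 5.28 (SD, n = 3) at ZT13 against 24.4 ± 2.54 at ZT1). The 4 chaperones of the 20S core passed neither test. Psmg1 (chr16:95979933-95990960, minus strand) had values of 14.4, 15.6 and 14.7 at ZT1, 11.5, 13.7 and 13.5 at ZT5, 13.7, 12.1 and 11.6 at ZT9, 17.01, 17.1 and 14.1 at ZT13, 15.3, 17.6 and 16.2 at ZT17, and 16.7, 14.3 and 12.5 at ZT21. Its ZT17 livers were above its ZT9 livers, and the cosine test was near the threshold (adjusted *P* = 0.0519) and was passed without ZT1 replicate 2 (0.0444), ZT21 replicate 2 (0.0471) or ZT21 replicate 3 (0.0159), with a minimum mean value of 1 (0.0447), with median-of-ratios scaling (0.0432) and with quantile normalisation (0.0344). Psmg3 (chr5:139823592-139826885, minus strand) had values of 10.1, 9.96 and 9.80 at ZT1, 8.47, 9.13 and 8.14 at ZT5, 9.93, 7.97 and 8.95 at ZT9, 10.3, 10.3 and 9.08 at ZT13, 9.07, 11.7 and 11.1 at ZT17, and 11.1, 10.3 and 9.84 at ZT21. Its ZT5 livers were below its ZT1 and ZT21 livers, and its cosine test (adjusted *P* = 0.0562) was passed without ZT9 replicate 1 (0.04) or ZT17 replicate 1 (0.0254), with a minimum mean value of 1 (0.0441), with quantile normalisation (0.0443) and with voom weights (0.0463). Psmg2 and Psmg4 had adjusted *P*-values of 0.613 and 0.951 in the time point test.

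Summed over subunits, the 19S cap was higher at ZT1 than at ZT13 and the immunoproteasome lower, with no test made on the sums. The 17 genes of the 19S cap summed to 1408, 1414 and 1427 at ZT1, 1264, 1289.6 and 1299 at ZT5, 1191, 1323 and 1148 at ZT9, 1247, 1218 and 1231 at ZT13, 1311, 1325 and 1395 at ZT17, and 1369, 1295 and 1334 at ZT21. The ZT1 livers had the 3 highest sums, and the means went from 1416 ± 10.1 at ZT1 to 1221 ± 91.2 at ZT9, a ratio of 1.16, with ZT9 replicate 3 the lowest liver. Without ZT9 replicate 2 the ratio was 1.21. The 14 constitutive 20S genes other than Psma8 had sums of 1124 ± 22.3 at ZT1 and 1056 ± 49.4 at ZT9, a ratio of 1.06, and the livers of these time points overlapped, while every ZT1 liver was above every ZT5 and ZT13 liver. The 3 immunoproteasome genes summed to 51.7, 48.2 and 46.1 at ZT1, 56.4, 51.4 and 58.4 at ZT5, 64.8, 68.8 and 73.3 at ZT9, 68.5, 72.2 and 66.96 at ZT13, 47.7, 52.9 and 60.6 at ZT17, and 56.2, 47.7 and 55.1 at ZT21. The 6 livers of ZT9 and ZT13 had the highest 6 sums, and the means were 69.2 ± 2.68 at ZT13 and 48.7 ± 2.83 at ZT1, a ratio of 1.42. All 48 genes together summed to 3042 ± 22.2 at ZT1 and 2798 ± 141 at ZT9, a ratio of 1.09. The 6 hepatocyte markers summed to 74782 ± 2447 at ZT9, the lowest time point, and to 96588 ± 6454 at ZT17, the highest. Alb made up most of both marker sums, with means of 52953 at ZT9 and 71855 at ZT17. Apoa1 was higher at ZT9 (7003) than at ZT17 (6025). The part of hepatocyte RNA in the proteasome sums was not tested.

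**Figure D5:**
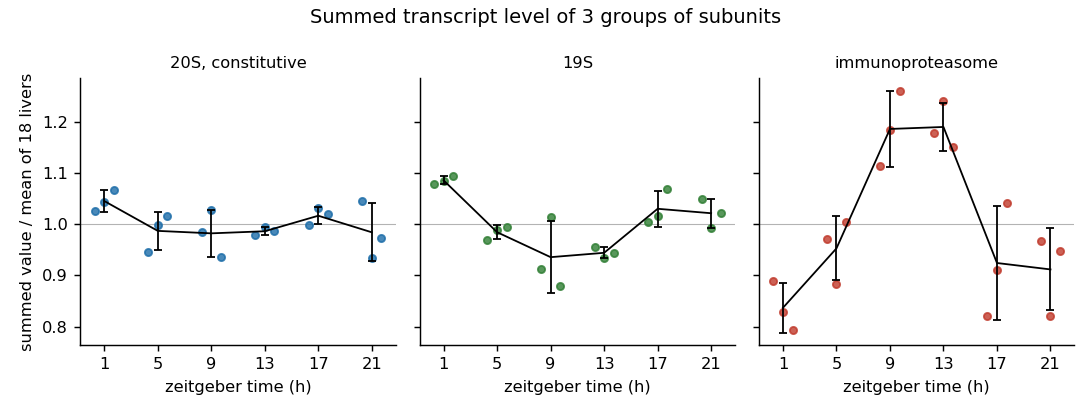
Summed normalised value of the 14 constitutive 20S genes, the 17 genes of the 19S cap and the 3 immunoproteasome genes in each liver, divided by the mean over the 18 livers (y axis), by zeitgeber time (x axis, h), with means as lines and standard deviations as bars. The 19S sum is highest at ZT1, where the immunoproteasome sum is lowest, and the ZT1 and ZT9 livers of the 20S sum overlap.

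Levels per kb were compared between genes within a subcomplex, since subunits enter the particle in fixed numbers. Over the 14 constitutive 20S genes the mean normalised value per kb ran from 19.4 (Psma2) to 95.9 (Psmb6), with a median of 69.3, and over the 17 genes of the cap from 26.6 (Psmd14) to 57.8 (Psmd8), with a median of 40.6. The 20S chaperones ran from 7.27 (Psmg4) to 13.9 (Psmg1), and the base chaperones from 7.12 (Psmd10) to 10.7 (Psmd9). Lengths are of annotated transcripts, and isoforms of another length in the liver would shift these levels.

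The mean value was below 1 for 2 of the 48 genes. Psma8 (chr18:14706151-14762301, plus strand), the alpha subunit of the testis, had values of 1.28, 0.136 and 0.526 at ZT1, 0.689, 0.775 and 0.146 at ZT5, 0.724, 0.792 and 0.515 at ZT9, 0.123, 2.29 and 0.651 at ZT13, 0.240, 0.476 and 1.39 at ZT17, and 0.767, 0.124 and 0.894 at ZT21. No time point stood apart, and neither test was passed (adjusted *P* = 0.979). Psme2b (chr11:48945354-48946190, minus strand), a copy of Psme2, had values of 1.18, 0.630 and 2.47 at ZT1, 1.73, 0.0337 and 0.478 at ZT5, 0.0426, 1.18 and 0.0468 at ZT9, 0.0410, 0.0342 and 1.26 at ZT13, 1.73, 0.488 and 2.10 at ZT17, and 0.486, 1.14 and 2.04 at ZT21. It was at the floor in 5 livers, its reads may be shared with Psme2 in the counting, its exons overlap those of 9930111J21Rik1 on the same strand, and it passed neither test (adjusted *P* = 0.0944 for the cosine, passed without ZT9 replicate 2, 0.0448, or ZT21 replicate 1, 0.0466, with voom weights, 0.0355, and with array weights, 0.034).

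The rhythm algorithms gave shorter lists of the same genes. JTK, a rank test of cosine orders, called 9 of 48 genes at a q-value under 0.05 (14.1% of all genes tested). MC, which combines JTK with a periodogram, called 12 (18.3%), and the cosine curve of CircaN called 8 (11.2%) at an R-squared of at least 0.7. Psma5, Psmb10, Psmc2, Psmc5, Psmd4, Psmd11 and Psme3 were called by all 5 tests (9.74% of all genes tested were), and 30 genes by none (60.2% of all genes tested). CircaN fitted periods between 22.7 and 24.8 h to 5 of these 7, and 20 h, the lower limit of its search, to Psmc5 and Psme3, so that its call for these 2 is not one of a 24 h period. Of the 30 genes called by none, the 28 with a mean value of at least 1 had ratios of highest to lowest mean from 1.06 to 1.38. The genes called by JTK, MC or CircaN were all among the 18 called by the time point or the cosine test. R-squared was 0.90 for Psmd11, 0.86 for Psma5 and 0.83 for Psme3. Without the R-squared minimum CircaN called 40 of 48 genes, and 85.6% of all genes tested. Its q-value combines the *P*-values of the amplitude and of the period. The period was confined to 20 to 28 h, so its *P*-value does not test for a rhythm. The R-squared minimum did most of the selecting. At a q-value under 0.01 JTK called 2 genes (2.18% of all genes tested) and MC 6 (9.18%), a Bonferroni combination in MC left 6 (8.35%), and with equal cosines as 1 group in its null JTK called 15 (22.4%). No proteasome gene had a 12 h term in limma (1.22% of all genes tested did), and 2 of 48 had an unadjusted *P*-value under 0.05 there, where 12.9% of all genes tested did. These were Psme3 (0.0042, adjusted *P* = 0.135) and Psmd10 (0.0392, adjusted *P* = 0.355). Without ZT5 replicate 3, the liver whose clock genes were nearest to ZT9, the time point test called 13 genes (26.5% of all genes tested in the same fit), the cosine test 15 (34.4%), JTK 6 (11.6%), MC 9 (15.7%) and CircaN 8 (11.5%).

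Other genes around the proteasome were read from the same fits, where the shares of all genes tested given above apply. Of 11 partners and assembly factors tested outside the Psm names, 2 passed the time point test and 6 the cosine test, 5 of these with a peak between ZT18 and ZT6. Zfand5, which can stimulate the 26S proteasome, had 62.1 ± 5.84 (SD, n = 3) at ZT1 against 35.8 ± 4.30 at ZT13 (log2 difference 0.78 ± 0.15 (SE), adjusted *P* = 0.00847) and a cosine peak at ZT0.5 ± 0.7 h (SE). AI314180, also known as Ecpas, a scaffold that binds the 26S particle, had 100.3 ± 4.51 (SD, n = 3) at ZT1 against 78.1 ± 5.32 at ZT17 (adjusted *P* = 0.00912). Txnl1, a redox protein of the cap, passed only the cosine test (adjusted *P* = 0.0595 and 0.0164). Pomp, the chaperone that matures the core, passed only the cosine test (92.2 ± 7.37 (SD, n = 3) at ZT21 against 77.7 ± 5.68 at ZT5, adjusted *P* = 0.0139). The ubiquitin receptor Adrm1, the lid protein Shfm1 (Sem1) and Akirin2, which brings proteasomes into the nucleus, passed neither, with adjusted *P*-values of 0.37, 0.321 and 0.528 in the time point test.

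Of 18 regulators of proteasome genes, 8 passed the time point test and 8 the cosine test, 4 with a peak between ZT18 and ZT6 and 4 between ZT6 and ZT18. Nfe2l1, the factor NRF1 that raises proteasome genes when the proteasome is blocked, had 119 ± 9.87 (SD, n = 3) at ZT13 against 102 ± 11.8 at ZT21 and passed neither test (adjusted *P* = 0.283 and 0.375). Ddi2, the protease that cuts NRF1 to its active form, passed the time point test (245 ± 11.8 (SD, n = 3) at ZT5 against 190.4 ± 6.47 at ZT9, adjusted *P* = 0.0142) and not the cosine test (0.775). Syvn1, a ubiquitin ligase of the endoplasmic reticulum that acts on NRF1, had 175 ± 53.8 (SD, n = 3) at ZT17 against 52.6 ± 5.23 at ZT5 (adjusted *P* = 5.71e-05). Foxo3 had 54.97 ± 4.82 (SD, n = 3) at ZT9 against 32.5 ± 5.61 at ZT1 (adjusted *P* = 0.000327) and the repressor Bach1 66.7 ± 14.3 (SD, n = 3) at ZT9 against 28.2 ± 5.44 at ZT17 (adjusted *P* = 0.000329). Among 10 response genes of NRF2 and NRF1, 6 passed the time point test and 4 the cosine test. Herpud1, of endoplasmic reticulum degradation, had 430.3 ± 63.7 (SD, n = 3) at ZT13 against 168 ± 27.5 at ZT21 (adjusted *P* = 2.13e-05), while Sqstm1, an autophagy receptor, had 329 ± 28.4 (SD, n = 3) at ZT1 against 239 ± 16.7 at ZT13 (adjusted *P* = 0.000777) and Gclc, of glutathione synthesis, 503 ± 59.01 (SD, n = 3) at ZT1 against 215 ± 89.5 at ZT13 (adjusted *P* = 0.000801).

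Of 18 genes that supply or deliver ubiquitin, 7 passed the time point test and 6 the cosine test. Hspa8, a chaperone, had 1927 ± 244 (SD, n = 3) at ZT13 against 610.5 ± 50.6 at ZT5 (adjusted *P* = 3.06e-06). The shuttle receptors Ubqln1 and Ubqln4, which carry substrates to the cap, had 170.3 ± 8.24 (SD, n = 3) at ZT1 against 107 ± 3.22 at ZT9 (adjusted *P* = 9.2e-06) and 47.6 ± 7.005 (SD, n = 3) at ZT13 against 27.6 ± 0.758 at ZT5 (adjusted *P* = 0.00088). Of 13 heat shock genes, 12 passed each test, and all 12 cosine peaks were between ZT6 and ZT18. Hsp90aa1 had 564 ± 21.2 (SD, n = 3) at ZT17 against 122 ± 4.71 at ZT5 (adjusted *P* = 6.11e-08), Hspa4l 62.97 ± 1.38 (SD, n = 3) at ZT17 against 21.8 ± 0.928 at ZT9 (adjusted *P* = 5.86e-07) and Hspa1b 128 ± 60.6 (SD, n = 3) at ZT13 against 7.86 ± 1.25 at ZT21 (adjusted *P* = 4.34e-07). Of 20 interferon and antigen processing genes, 9 passed each test. The interferon-induced GTPases Irgm1 and Ifi47 were highest at ZT21, with 64.4 ± 3.70 (SD, n = 3) at ZT21 against 42.9 ± 5.10 at ZT9 (adjusted *P* = 0.000385) and 32.9 ± 5.17 (SD, n = 3) at ZT21 against 15.3 ± 1.93 at ZT13 (adjusted *P* = 0.000897), and Tapbp, of peptide loading, had 65.6 ± 10.05 (SD, n = 3) at ZT5 against 44.7 ± 6.05 at ZT17 (adjusted *P* = 0.00646). Tap1, which shares its start region with Psmb9, passed neither test (adjusted *P* = 0.232).

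All 17 clock genes passed both tests, and their median cosine amplitude was 1.44 on the log2 scale, against 0.09 over the proteasome genes. The output gene Dbp had 111 ± 3.71 (SD, n = 3) at ZT9 against 0.308 ± 0.148 at ZT1, Tef 257 ± 13.01 (SD, n = 3) at ZT9 against 27.2 ± 1.90 at ZT1 and Nr1d2 125 ± 13.1 (SD, n = 3) at ZT9 against 11.6 ± 2.13 at ZT21 (adjusted *P* = 3.03e-14, 8.53e-13 and 1.95e-11). Among markers of the other cell types a liver holds, 2 of 6 hepatocyte markers passed the time point test, with Hnf4a at 699 ± 76.2 (SD, n = 3) at ZT13 against 453 ± 8.74 at ZT1 (adjusted *P* = 0.00309), then Ttr (0.0357) and Serpina1c (0.0762). Of 6 markers of sinusoidal endothelium 2 passed, with adjusted *P*-values of 0.0359 for Stab2, 0.0387 for Stab1 and 0.0835 for Kdr. Of 6 stellate cell markers none passed that test (lowest 0.0751 for Reln, then 0.539 for Dcn and 0.587 for Rgs5), and 1 passed the cosine test. Of 5 cholangiocyte markers 1 passed the time point test, Sox9 (9.18 ± 1.63 (SD, n = 3) at ZT1 against 3.10 ± 0.697 at ZT9, adjusted *P* = 0.000156), followed by Krt19 (0.0595) and Spp1 (0.208). The cosine test was passed by 3 of the 5 cholangiocyte markers and by 3 of the 6 hepatocyte markers. The part of all these cell types in the proteasome values was not tested.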

How the data were processed

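RNA from 18 livers, each from its own mouse, was sequenced as 50-nt single reads. The authors demultiplexed reads with CASAVA 1.8.2, removed adapters with Cutadapt, quantified genes on GRCm38 (Ensembl gene-build 84) with RSEM 1.2.20 and normalised with limma. The deposited signal values are linear. Each is an estimated count with 0.5 added, per 1000000 reads of the effective size that the authors gave the library. Of 5 mice per time point the authors sequenced the 3 with the best RNA. Zeitgeber times were taken from the labels. The floor of 0.5 reads lay between 0.0208 and 0.0478, and 2 of 14451 genes at the floor in every liver were left out.

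Tests were run on log2(value + 1) over all 14449 genes with limma 3.58.1 (R 4.3.3), with Benjamini-Hochberg adjustment over all genes and a threshold of 0.05, for time point as a factor, a 24 h cosine, and a 12 h term beside it. Fold changes on this scale are understated for low genes. For Psme2b the log2 difference was 0.80, where the means had a ratio of 3.40. JTK, MC (JTK with Lomb-Scargle, Fisher's combination) and CircaN (cosine curve, period between 20 and 28 h) were rewritten from their descriptions (Python 3.11.15, numpy 2.4.6, scipy 1.17.1), CircaN without its other curves and without a random effect for replicates. All were tested on simulated data. *P*-values rest on the spread between mice, and those of the ratios also on the spread between time points. No pair of libraries of a time point had identical values, and their chi-square per gene lay between 6.63 and 50.1. The pairs of ZT5 had the highest, from 35.1 to 50.1, and the highest pair of any other time point had 30.2. Summed levels, ratios and motifs used the same table. Coordinates are from GENCODE M21 (GRCm38), promoter windows from RefSeq (GRCm38.p6). Exons of 14 proteasome genes overlap another gene, and 7 of these a gene of the table.

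Named with values in every liver were the 2 genes of each role group with the lowest adjusted *P* in the time point test, the 6 catalytic subunits, the 5 largest ratios of time point means among genes with a mean of at least 1, and genes with a mean below 1. Of the lists of partners, regulators, ubiquitin supply, interferon, NRF2 and NRF1 response, heat shock, clock and cell type genes, the 3 lowest adjusted *P*-values were named, and Pomp, Adrm1, Shfm1, Nfe2l1, Ddi2 and Akirin2. One marker that this rule names is not reported here. Other genes named were chosen after their values were seen. The members and lists were chosen with earlier results of these data known. Alternatives were other pseudocounts, filters, scalings and weights, other rhythm thresholds and combinations, and leaving out each liver.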

Additional observations from a re-analysis of the deposited data

Results flagged for a closer look

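Among the 9 dark livers, the log2 ratio of Psmb8 to Psmb5 of ZT13 replicate 2, -0.86, lay far from the other 8, which ran from -1.67 to -1.33, and its gap to the nearest was 0.581 of the whole range (Dixon's test, 95% level). Chance alone passes the limit of this test in about 1 of 20 groups, and 6 groups (3 ratios, dark and light) were examined. The 9 livers pool 3 time points with means of -1.18 at ZT13, -1.59 at ZT17 and -1.51 at ZT21, which this test does not take into account, and the 3 highest of the 9 were the ZT13 livers. That liver had a Psmb5 value of 54.0, the lowest of ZT13, and a Psmb8 value of 29.2, the highest of ZT13.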

How the results depend on the processing

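No paired analysis was possible because each liver came from its own mouse and the labels link no livers between time points. Over 27 fits (as reported, 8 other settings and 18 left-out livers) the time point test called between 11 and 15 proteasome genes (25.4% to 34.2% of all genes tested in these fits) and the 24 h cosine between 14 and 19 (33.1% to 42.7%), and no setting gave a 12 h term. Of 13 genes called by the time point test 9 were called in all 27 fits, and of 17 called by the cosine test 12 were. Of 46 results on single named genes 32 kept their side of the threshold in every fit. JTK called 2 genes at a q-value under 0.01 and 15 with equal cosines treated as 1 group in its null, a setting added after the data were seen. MC called 6 genes at a q-value under 0.01 and 6 with a Bonferroni combination. Without the R-squared minimum CircaN called 40, and 85.6% of all genes tested. With every liver scaled to 1000000 the fold between the highest and the lowest mean of the summed level was 1.14 for the 19S lid and 1.07 for the base chaperones, against 1.17 and 1.13. Leaving out 1 liver at a time, the fold lay between 1.14 and 1.21 for the lid, between 1.13 and 1.20 for the ATPases, between 1.15 and 1.21 for the whole cap and between 1.07 and 1.12 for all 48 genes, in each case highest without ZT9 replicate 2. The dark minus light difference of Psmb10 over Psmb7 lay between -0.00789 and 0.116. That of Psmb8 over Psmb5 lay between -0.222 and -0.0836, and that of Psmb9 over Psmb6 between -0.151 and -0.0435. The cause of these shifts was not tested. The 2 genes with a mean below 1 rest on few reads, and the cosine call of Psme2b depended on the weights and on single livers.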
